A study of Mus musculus with 23 samples.

Results

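miR-335 is a microRNA hairpin in an intron of Mest, and its arms, mmu-miR-335-5p and mmu-miR-335-3p (miR-335-5p and miR-335-3p from here on), were followed in mouse liver. They were the 2 members, taken by name from the 1218 mature miRNAs of a small RNA sequencing count table, and both were among the 386 miRNAs with enough reads to be tested. The table held 23 liver libraries in 3 groups, each from F3 male C57bl/6J mice that were fasted before sampling. Mice of the reference group (labelled STD_Cont, n = 8) came from the control lineage, bred on a growing diet with 1% high-oleic sunflower oil. They then ate, for 17 weeks, a low-fat diet in which fat gave 10% of the energy. Mice of the HFoleic group (HFD_Cont, n = 8) came from the same lineage. For the same 17 weeks they ate a diet rich in fat and sucrose in which fat gave 45% of the energy. Mice of the HFepa group (HFD_O3, n = 7) received the same high-fat diet and came from the omega 3 lineage, bred on a growing diet with 1% fish oil rich in the omega 3 fatty acid EPA. The omega 3 lineage had no low-fat group, so HFepa vs. reference differed in both diet and lineage. HFoleic vs. reference tested the high-fat diet, and HFepa vs. HFoleic tested the lineage under that diet.

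Mest is an imprinted gene expressed from the paternal allele, and its level is known to rise in expanding white fat of mice. Its intron carries the miR-335 hairpin on the same strand. Drosha and Dicer cut such a hairpin into a short duplex of its arms, and usually 1 strand is kept in an Argonaute protein while the other is degraded. The kept strand finds its target mRNAs mainly through its seed, bases 2 to 8. miR-335 has been described as a miRNA that accumulates with lipid loading in the liver and white fat of obese mice.

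The sequences of both arms are given because each is read as a miRNA of its own, with its own seed. They are from RefSeq (GRCm38.p6, plus strand of chromosome 6), are written 5′ to 3′, and have the seed in capitals.
miR-335-5p: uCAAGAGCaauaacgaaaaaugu
miR-335-3p: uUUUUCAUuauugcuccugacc
miR-335-5p lay at chr6:30741314-30741336 and had 23 bases, of which 69.6% were A or U. miR-335-3p lay at chr6:30741354-30741375 and had 22 bases, of which 63.6% were A or U. The seeds, CAAGAGC and UUUUCAU, differed from each other, and neither was found in any other of the 1679 mouse mature miRNAs listed by RefSeq. The first 6 bases of the 5p seed were also found in miR-7646-5p, which was in the count table but had too few reads to be tested. The first 6 bases of the 3p seed were also found in miR-6986-3p, which was not analysed here. Each arm's exact sequence occurred in 1 RefSeq hairpin only. The alignment allowed mismatches, and whether reads with mismatches were assigned to another hairpin was not tested.

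The whole hairpin, Mir335 at chr6:30741299-30741396, is given to show where the arms sit in it, with both arms in capitals.
Mir335: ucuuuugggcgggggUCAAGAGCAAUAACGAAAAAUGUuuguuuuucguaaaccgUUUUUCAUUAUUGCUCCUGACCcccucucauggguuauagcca
In the structure of lowest energy predicted by RNAfold (-44.3 kcal/mol), 18 of the 23 bases of miR-335-5p paired with miR-335-3p, and 17 bases separated the arms. Mest extended over chr6:30723547-30748465 (GENCODE, GRCm38, plus strand). The hairpin was in an intron of 7 of the 11 annotated Mest transcripts and beyond the ends of the other 4. This intron, chr6:30740825-30742140, had 1316 bases, and the hairpin began 474 bases after the upstream exon and ended 744 bases before the downstream exon. The 3′ end of Mest overlapped Copg2, which lies on the opposite strand. Mest mRNA itself was not analysed here.

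Both arms were minor miRNAs in these livers. miR-335-5p had a mean of 68.0 reads per 1000000 (CPM, scaled by edgeR's TMM factors) over the 23 libraries, and ranked 153rd of 386 miRNAs. miR-335-3p had a mean of 41.9 CPM and ranked 178th. For comparison, miR-192-5p and miR-122-5p, which are made mainly by hepatocytes in liver, had means of 205181 and 18681 CPM. Each library held 252 to 560 reads of miR-335-5p and 122 to 320 reads of miR-335-3p, out of library totals of 3725432 to 8139344 reads. The HFepa libraries were the shallowest (median 4400595 reads), followed by HFoleic (5408676) and reference (5981328). How efficiently each arm was ligated and amplified was not tested, so the levels of the arms are compared as reads.

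The 3p arm was higher in both high-fat groups than in the reference group. In reference livers, miR-335-3p ranged from 23.3 CPM (library 1) to 47.2 CPM (library 5), with a median of 29.7 and a mean of 31.9 ± 7.93 (SD, n = 8). In HFoleic livers, it ranged from 36.4 to 58.4 CPM, with a median of 43.4 and a mean of 45.6 ± 8.20 (SD, n = 8). In HFepa livers, it ranged from 40.7 to 58.1 CPM, with a median of 49.9 and a mean of 49.2 ± 7.60 (SD, n = 7). All 8 HFoleic and all 7 HFepa libraries were above the reference median, but the groups overlapped. Only 3 HFoleic and 4 HFepa libraries exceeded the highest reference library. That library, number 5, was the only reference library above the lowest HFepa value, and the next highest was library 3 at 39.7 CPM. In bulk liver, fewer cells of a type and less RNA per cell cannot be told apart, and this holds for all levels given here.

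The 5p arm, the more abundant of the pair, differed less between the groups. In reference livers, miR-335-5p ranged from 52.7 to 67.1 CPM, with a median of 63.3 and a mean of 61.8 ± 5.44 (SD, n = 8). In HFoleic livers, the range was 60.8 to 84.1 CPM, with a median of 68.1 and a mean of 69.1 ± 7.65 (SD, n = 8). In HFepa livers, the range was 63.7 to 91.9 CPM, with a median of 67.8 and a mean of 73.8 ± 11.7 (SD, n = 7). Here 4 of 8 HFoleic and 4 of 7 HFepa libraries exceeded the highest reference library, while 4 of 8 reference libraries lay above the lowest value of each high-fat group. The spread of the 5p arm was narrowest in the reference group (coefficient of variation 8.80%) and widest in HFepa (15.8%). For the 3p arm the order was the opposite, with 24.8% in reference, 18% in HFoleic and 15.5% in HFepa livers. These differences in spread were not tested.

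**Figure D1:**
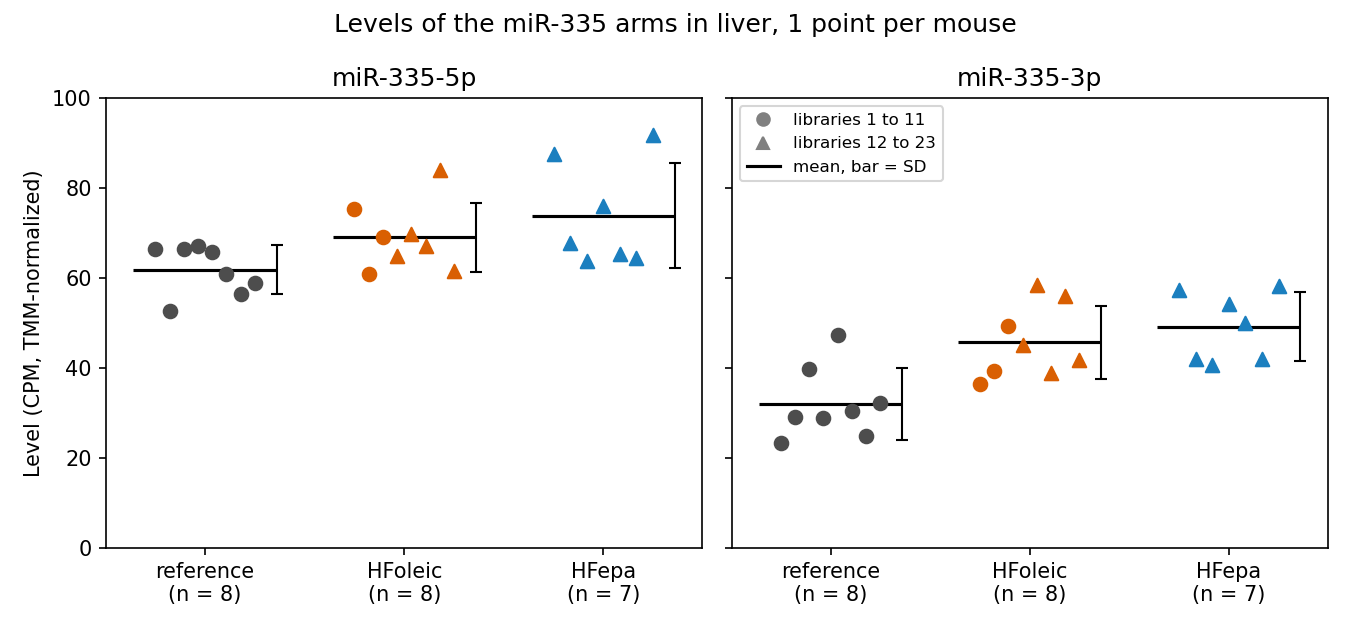
Levels of miR-335-5p (left) and miR-335-3p (right) in CPM (TMM-normalized, linear axis from 0), with 1 point per mouse, a line at the group mean and a bar of 1 SD to each side. Circles are libraries 1 to 11 and triangles libraries 12 to 23. The 3p means were 31.9, 45.6 and 49.2 CPM in reference, HFoleic and HFepa, against 61.8, 69.1 and 73.8 CPM for the 5p arm.

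With the oleic lineage on the high-fat diet, miR-335-3p rose 1.43-fold over the reference group. Its log2 fold change was 0.51 ± 0.14 (SE), with a 95% interval of 0.23 to 0.80 and an adjusted p of 0.0233 (edgeR quasi-likelihood test, Benjamini-Hochberg over 386 miRNAs). It was called as changed, at an adjusted p under 0.05 and a log2 fold change over 0.25 in size. miR-335-5p was 1.12-fold higher, with a log2 fold change of 0.16 ± 0.09 (SE), an interval of -0.03 to 0.35 and an adjusted p of 0.249, and was not called. Thus 1 of the 2 arms was called, where 48 of the 386 miRNAs were called in all (12.4%), 19 of them as higher (4.92%). The median log2 fold change of all tested miRNAs was -0.00.

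In HFepa vs. reference, miR-335-3p rose 1.54-fold. Its log2 fold change was 0.62 ± 0.14 (SE), with an interval of 0.32 to 0.92 and an adjusted p of 0.00729 by the same edgeR test. miR-335-5p was 1.19-fold higher, with a log2 fold change of 0.25 ± 0.09 (SE) and an interval of 0.06 to 0.45, but its adjusted p of 0.0601 missed the threshold. Again 1 of the 2 arms was called, against 61 of 386 miRNAs (15.8%), 20 of them as higher (5.18%). The 2 comparisons used the same reference libraries, so the rise of miR-335-3p in HFepa was not a separate observation of the one in HFoleic. In this comparison 18 of 386 miRNAs had CPM values that did not overlap between the groups (4.66%), and neither arm of miR-335 was among them. In HFoleic vs. reference no miRNA separated the groups completely.

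Neither arm was called between the lineages under the high-fat diet. miR-335-3p was 1.08-fold higher in HFepa than in HFoleic, with a log2 fold change of 0.11 ± 0.14 (SE) and an interval of -0.19 to 0.41. miR-335-5p was 1.07-fold higher, with a log2 fold change of 0.10 ± 0.09 (SE) and an interval of -0.10 to 0.29. The adjusted p was 0.968 for both arms (edgeR). In this comparison edgeR called 0 of 386 miRNAs (0%), with 22 at an unadjusted p under 0.05, and DESeq2 and limma after quantile normalization called 0 as well. The intervals still held differences of up to 0.41 and 0.29 on the log2 scale.

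**Figure D2:**
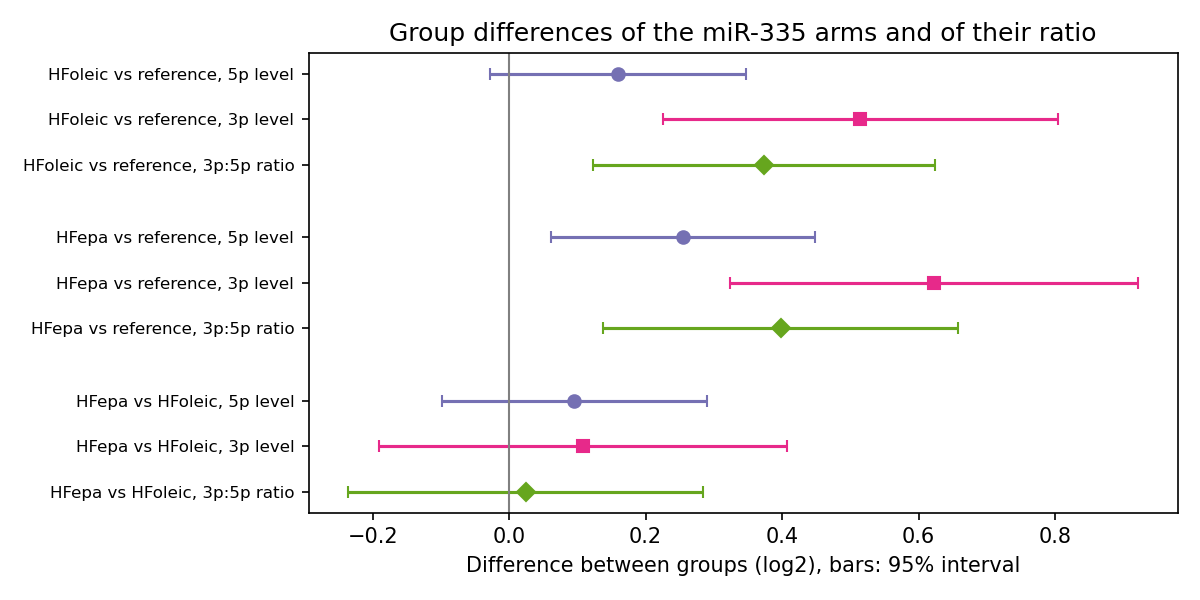
Log2 differences between groups for the level of each arm (edgeR) and for the ratio of 3p to 5p reads (limma), with 95% intervals as bars and 0 marked by a line. For both high-fat groups vs. reference the intervals of the 3p level and of the ratio lay above 0, while in HFepa vs. HFoleic all 3 intervals included 0. The interval of the 5p level lay above 0 in HFepa vs. reference (0.06 to 0.45) and included 0 in HFoleic vs. reference (-0.03 to 0.35).

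Because both arms were counted in the same library, their ratio does not depend on how libraries are scaled. miR-335-5p had more reads than miR-335-3p in every library. In the reference group the 3p arm made up 33.7 ± 4.90% of miR-335 reads (SD, n = 8), from 26.0% in library 1 (95% Wilson interval 22.2 to 30.1%) to 41.8% in library 5 (38.1 to 45.5%), with a median of 34.3%. In HFoleic the share was 39.6 ± 3.79% (SD, n = 8), with a range of 32.6 to 45.6% and a median of 40.2%. In HFepa it was 40.0 ± 1.82% (SD, n = 7), with a range of 38.3 to 43.3% and a median of 39.4%. All 7 HFepa libraries and 7 of 8 HFoleic libraries were above the reference median, but only 1 library of each group exceeded the highest reference library. Expressed as reads of 3p per read of 5p, the means were 0.516, 0.662 and 0.668 in reference, HFoleic and HFepa.

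The share varied by more than counting error among reference and HFoleic livers, and by no more than it among HFepa livers. The chi-square per degree of freedom for a common share within the group, which is about 1 when reads alone set the spread, was 6.37 in reference, 3.91 in HFoleic and 0.698 in HFepa. The Wilson intervals cover counting error only, since reads amplified by PCR without molecular identifiers are not independent molecules.

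**Figure D3:**
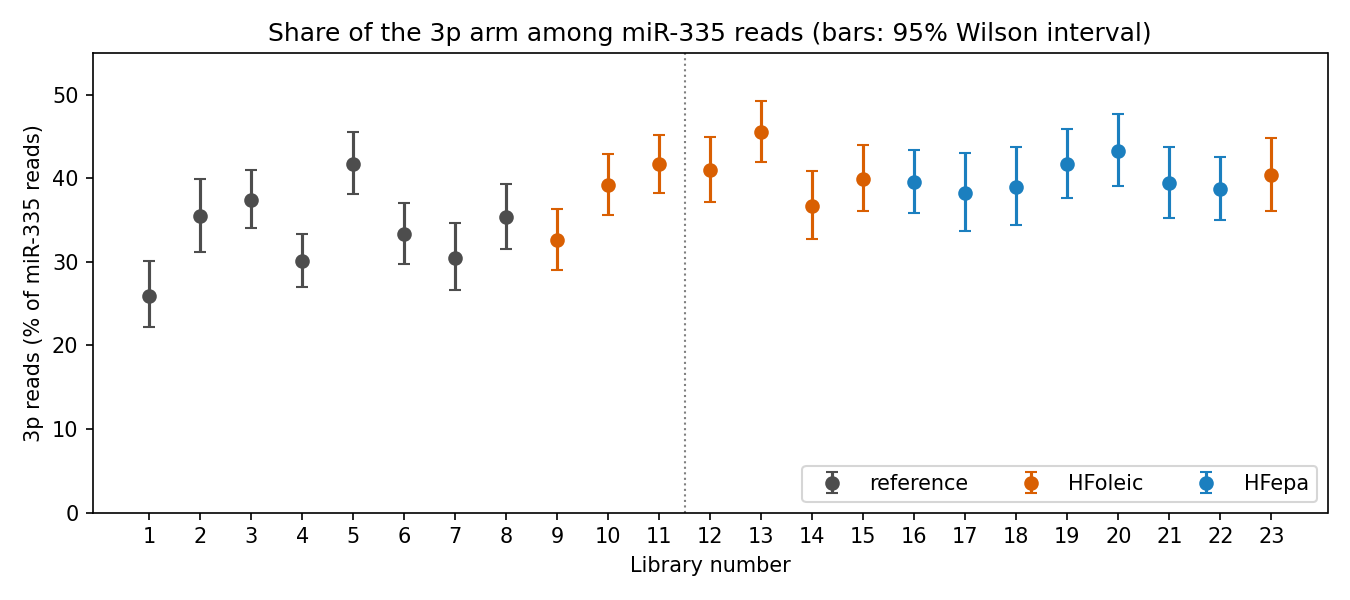
Reads of miR-335-3p as a percentage of all miR-335 reads in each library (linear axis from 0), in the order of the library numbers in the titles, with 95% Wilson intervals. The dotted line separates libraries 1 to 11 from 12 to 23, and shares ranged from 26.0 to 41.8% in reference, 32.6 to 45.6% in HFoleic and 38.3 to 43.3% in HFepa.

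The ratio of 3p to 5p reads was higher in both high-fat groups, but its calls were not stable. With 1 library left out in turn, the call was lost in 9 of 23 fits in HFoleic and 5 of 23 in HFepa. Both calls were also lost with a term for the range of library numbers (below). In HFoleic vs. reference the log2 ratio was higher by 0.37 ± 0.12 (SE), with an interval of 0.12 to 0.62, or 1.30-fold (adjusted p = 0.0360, limma over 100 hairpins with both arms tested). In HFepa vs. reference it was higher by 0.40 ± 0.13 (SE), with an interval of 0.14 to 0.66, or 1.32-fold (adjusted p = 0.0298). Exact permutation tests over libraries (two-sided) gave p = 0.0183 among 12870 splits and p = 0.00730 among 6435 splits. Between HFepa and HFoleic the log2 ratio differed by 0.02 ± 0.13 (SE), with an interval of -0.24 to 0.28 and an adjusted p of 0.978 (limma). In the same model 15 of the 100 hairpins were called in HFoleic vs. reference (15.0%), of which 4 gained 3p reads (4.0%). In HFepa vs. reference 19 were called (19%), of which 5 gained 3p reads (5.0%), and in HFepa vs. HFoleic 0 were called, with 6 at an unadjusted p under 0.05.

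miR-335 was therefore among the smaller group of called hairpins whose balance moved toward the 3p arm. It ranked 10th of the 15 called hairpins by size of change in HFoleic and 17th of the 19 in HFepa. The 3 largest called changes in HFoleic, miR-99b (-1.69), miR-362 (-1.08) and miR-221 (-0.90), all went toward the 5p arm on the log2 scale. So did the 3 largest in HFepa, miR-99b (-2.17), miR-1843b (-1.36) and miR-425 (-1.11). The other hairpins that gained 3p reads, named after their values were seen, were miR-511 (0.64), miR-21a (0.40) and miR-1948 (0.34) in HFoleic. In HFepa they were miR-145a (0.92), miR-1948 (0.67), miR-1981 (0.62) and miR-1839 (0.51). The median difference of all 100 hairpins was -0.07 in HFoleic and -0.06 in HFepa.

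The arms of miR-335 were also more evenly represented than those of most hairpins. Over all libraries the mean log2 ratio of 3p to 5p was -0.73, the 15th nearest to equal of 100 hairpins, while the median size of the log2 ratio was 3.93. Only 20 hairpins were within 1 log2 unit of equal.

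**Figure D4:**
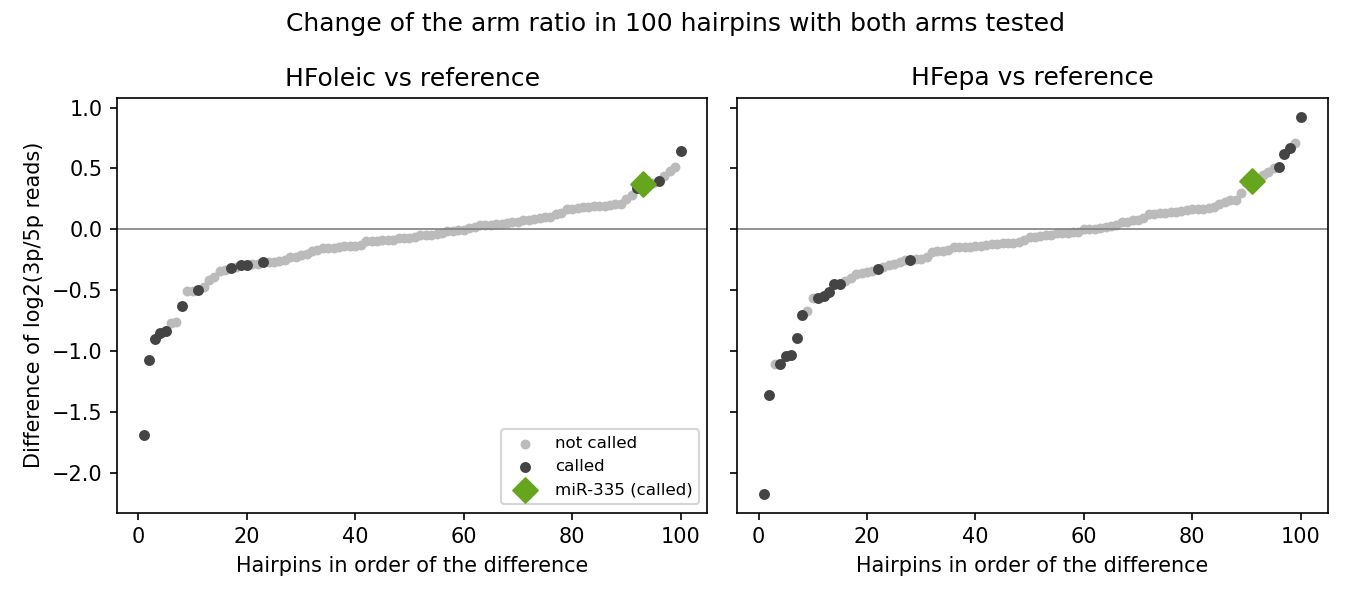
Differences of the log2 ratio of 3p to 5p reads between groups for 100 hairpins, in rising order, in HFoleic vs. reference (left) and HFepa vs. reference (right). Dark points are called hairpins, and the green diamond, miR-335, stood 8th from the highest at 0.37 and 10th from the highest at 0.40.

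The libraries are numbered from 1 to 23 in their titles, and these numbers followed the groups. All 8 reference libraries were among numbers 1 to 11, all 7 HFepa libraries were among 12 to 23, and HFoleic had 3 in the first range and 5 in the second. Within HFoleic, miR-335-3p was 41.7 ± 6.81 CPM in libraries 9 to 11 (SD, n = 3) and 48.0 ± 8.69 CPM in the other 5 (SD, n = 5). miR-335-5p was 68.3 ± 7.24 and 69.5 ± 8.70 CPM in the same libraries, and the 3p share was 37.8 ± 4.70% and 40.7 ± 3.18%. With a term for the number range in the model, the log2 fold change of miR-335-3p was 0.38 in HFoleic (adjusted p = 0.437, edgeR) and 0.42 in HFepa vs. reference (adjusted p = 0.723), and neither was called. Few calls of any miRNA were left in that fit, 1 of 386 in HFoleic vs. reference and 0 in HFepa vs. reference, against 48 and 61 without the term. The differences of the log2 ratio became 0.26 (adjusted p = 0.966, limma) and 0.22 (adjusted p = 0.962). Within libraries 1 to 11 alone, miR-335-3p was 0.39 higher in HFoleic than in reference on the log2 scale (adjusted p = 0.662, edgeR, n = 3 and 8), and the log2 ratio was 0.26 higher (adjusted p = 0.763, limma). Of the 409 miRNAs tested in these libraries, edgeR called 0. Within libraries 12 to 23 alone, the log2 difference between HFepa and HFoleic was 0.05 for miR-335-3p, 0.10 for miR-335-5p and -0.04 for the ratio. Reference and HFepa shared no number range, so between them the number range and the group cannot be told apart. The labels do not say whether the numbers mark a batch.

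Over all libraries, the levels of the arms were correlated from mouse to mouse by Pearson's r but not, after adjustment, by Spearman's rho. After removal of the group means, log2 CPM of the arms correlated over the 23 libraries with Pearson's r = 0.51 (permutation p = 0.0112, adjusted 0.0264 over 7 relations) and Spearman's rho = 0.44 (permutation p = 0.0420, adjusted 0.0980). Within libraries 12 to 23, r was 0.78 (permutation p = 0.00366, adjusted 0.0256) and rho was 0.82 (permutation p = 0.00177, adjusted 0.00928). Within libraries 1 to 11, r was 0.24 (permutation p = 0.495, adjusted 0.495) and rho was -0.05 (permutation p = 0.887, adjusted 0.887). By group, r was 0.32 in reference, 0.44 in HFoleic and 0.88 in HFepa (permutation p = 0.438, 0.280 and 0.0113, adjusted 0.495, 0.392 and 0.0264). Spearman's rho in the same groups was -0.07, 0.31 and 0.96 (permutation p = 0.882, 0.459 and 0.00265, adjusted 0.887, 0.643 and 0.00928). Without libraries 15 and 22, the farthest from the median of the 5p arm, r fell to 0.41 (permutation p = 0.0665, adjusted 0.116) and rho to 0.32 (permutation p = 0.170, adjusted 0.298). The pooled r was thus smaller without these libraries and its p no longer passed the threshold, and within libraries 1 to 11 no correlation was detected. Whether r differed between the groups or number ranges was not tested. Among the 100 hairpins, r between arms ranged from -0.60 to 0.98 with a median of 0.30, and miR-335 ranked 34th.

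The miRNAs most like each arm from mouse to mouse were found by Pearson's r over the same 23 values, as a description. Group means had been removed from these values, so r does not show whether a miRNA changed with the groups. For miR-335-5p they were miR-18a-5p (r = 0.52), miR-129-5p (0.52), miR-335-3p itself (0.51), miR-3074-1-3p (0.47) and miR-322-5p (0.45). Of these, miR-129-5p and miR-3074-1-3p had mean levels of only 2.48 and 2.51 CPM, so their r rests on few reads. Their r was 0.31 and -0.12 in libraries 1 to 11, and 0.69 and 0.72 in libraries 12 to 23. Apart from miR-335-3p, none of them was called against the reference group. For miR-335-3p they were miR-34c-5p (0.71), miR-350-3p (0.67), miR-218-5p (0.65, mean level 2.57 CPM), miR-411-5p (0.62) and miR-434-5p (0.62), and its own 5p arm came 28th. Unlike miR-335-3p, these 5 had negative log2 fold changes against the reference group. The values ran from -0.06 (miR-350-3p) to -2.30 (miR-434-5p) in HFoleic and from -0.20 to -2.24 in HFepa. Only miR-411-5p and miR-434-5p were called, as lower in both comparisons. miR-411-5p and miR-434-5p are encoded in the imprinted Dlk1-Dio3 region. Their r with miR-335-3p was 0.81 and 0.87 in libraries 1 to 11 but 0.08 and -0.26 in libraries 12 to 23. The first range holds library 5, which had the highest miR-335-3p of the reference group (47.2 CPM). There the 11 tested miRNAs of that region summed to 6373 CPM, against 147 to 941 CPM in the other reference libraries. The part of library 5 in these r values was not tested. All points share library depth and scaling.

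Reference libraries 3, 4 and 5 stood apart in markers of other tissues or cell types. The 7 tested hepatocyte miRNAs summed to 192594 CPM in library 3, against 298836 to 345775 CPM in the other reference libraries. Its 6 biliary miRNAs summed to 1768 CPM, against at most 706 CPM in the rest of the group. The 12 miRNAs of stellate cells and fibroblasts summed to 54054 CPM in library 5 and 46235 CPM in library 3, and to 24653 to 29933 CPM in the other 6. Those 2 libraries also had the highest miR-335-3p of the reference group, so they lay on the side of the high-fat groups. In the high-fat groups the stellate list summed to 20543 to 30117 CPM (HFoleic) and 24404 to 32246 CPM (HFepa). Library 5 further had 2020 CPM of miR-375-3p, a pancreatic islet miRNA, against at most 57.3 CPM in the rest of the group. Library 4 had 205 CPM of the muscle miRNA miR-133a-3p, against at most 11.4 CPM. The part of these cells in the levels of miR-335 was not tested.

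Leaving out libraries 3, 4 and 5 was an alternative chosen after seeing the data. Libraries 5 and 3 had the highest miR-335-3p of the reference group (47.2 and 39.7 CPM), so leaving them out lowered its reference level. The larger fold changes that follow are therefore not separate support for the rise. miR-335-3p then had a log2 fold change of 0.67 in HFoleic vs. reference (adjusted p = 0.0211, edgeR) and 0.79 in HFepa vs. reference (adjusted p = 0.00350). The 5p arm was still not called, at 0.19 (adjusted p = 0.362) and 0.30 (adjusted p = 0.0886). The difference of the log2 ratio was 0.48 in HFoleic (adjusted p = 0.0503, limma), no longer called, and 0.50 in HFepa (adjusted p = 0.0135). In HFoleic vs. reference only 2 miRNAs of 390 were then called, miR-335-3p and miR-501-3p (2.71, adjusted p = 0.0239, named after its values were seen).

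Imprinted miRNAs of other loci were examined beside miR-335. Of 80 Dlk1-Dio3 miRNAs in the table, a cluster expressed from the maternal allele, 11 were tested. In HFoleic vs. reference 11 of them were called lower and 0 higher (median log2 fold change -2.64), and in HFepa vs. reference 10 were called lower (median -2.25). Of all 386 miRNAs, 29 (7.51%) and 41 (10.6%) were called lower, and the medians were -0.00 and -0.06. These calls rested on library 5, where the 11 summed to 6373 CPM against 147 to 941 CPM in the other reference libraries. Without library 5, 0 of the 11 were called in either comparison, and their medians were -1.0 and -0.76. Calls in either direction among all 385 miRNAs tested in that fit were 12 in HFoleic and 36 in HFepa. None of the 7 listed miRNAs of the imprinted Igf2, H19 and Gnas loci had enough reads to be tested.

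miRNAs with known roles in hepatic lipid metabolism were called at a share near or below that of all tested miRNAs (12.4% and 15.8%). Of 25 listed, all of them tested, 2 were called higher and 1 lower in HFoleic vs. reference (median log2 fold change 0.02), and 0 higher and 1 lower in HFepa vs. reference (median -0.02). The called ones, named after their values were seen, were in HFoleic miR-33-5p, which lies in an intron of Srebf2 and represses the cholesterol exporter Abca1 (0.58, adjusted p = 0.0278, edgeR), miR-107-3p (0.39, adjusted p = 0.0357) and miR-128-3p (-0.49, adjusted p = 0.0311). In HFepa it was miR-128-3p (-0.63, adjusted p = 0.00872). Without library 5 the counts were 0 and 0 in HFoleic and 0 and 1 in HFepa. Calls among all 385 miRNAs tested in that fit also fell, to 12 in HFoleic and 36 in HFepa. The most abundant of them, miR-148a-3p, which limits the LDL receptor, had log2 fold changes of -0.13 (adjusted p = 0.377, edgeR) and -0.26 (adjusted p = 0.0679). miR-26a-5p had values of 0.08 (adjusted p = 0.424) and 0.22 (adjusted p = 0.0340), and the second was below the size needed for a call.

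Calls in the cell type lists stand beside the same shares of all tested miRNAs, 12.4% in HFoleic and 15.8% in HFepa. Without library 5, 12 and 36 of 385 miRNAs were called in these comparisons. Median log2 fold changes in HFoleic and HFepa were -0.41 and -0.42 for the stellate list and -0.28 and -0.18 for leukocytes. For biliary miRNAs they were -0.33 and -0.24, and for hepatocyte miRNAs 0.08 and 0.01. For red blood cell miRNAs they were -0.19 and -0.07, and for endothelial miRNAs 0.03 and 0.12. All tested miRNAs had medians of -0.00 and -0.06. Without library 5 the stellate medians were -0.45 and -0.41. These medians were not tested. In these lists, 0 of 7 hepatocyte and 0 of 5 red blood cell miRNAs were called in either comparison with the reference group. Of 12 stellate and fibroblast miRNAs, 0 were called in HFoleic, while in HFepa miR-145a-3p was called higher (0.61, adjusted p = 0.0396, named after its values were seen) and miR-10b-5p lower (-2.36, adjusted p = 0.04998), and without library 5 none was called. Of 7 leukocyte miRNAs, miR-150-5p, abundant in mature lymphocytes, was called lower in both, by -0.94 (adjusted p = 0.0174, edgeR) and -1.40 (adjusted p = 0.00122) on the log2 scale. Of 6 biliary miRNAs, miR-429-3p was called lower in HFepa (-1.22, adjusted p = 0.0340). Without libraries 3, 4 and 5, where fewer miRNAs were called in all, miR-429-3p was not called. In that fit miR-150-5p was called in HFepa only (-1.14, adjusted p = 0.0136, edgeR). Of 3 endothelial miRNAs, miR-126a-5p was called higher in HFepa (0.25, adjusted p = 0.0416), and not without library 5. The single tested miRNAs of muscle and pancreas, miR-133a-3p and miR-375-3p, were called lower in both comparisons. Without library 5, miR-375-3p was called in neither (log2 fold change -3.87 to -0.32 in HFoleic and -4.19 to -0.62 in HFepa), and miR-133a-3p was called in HFepa but not in HFoleic. However, miR-133a-3p had 205 CPM in reference library 4, against at most 11.4 CPM in the rest of that group. Without libraries 3, 4 and 5, miR-133a-3p was called in neither comparison. In HFepa vs. HFoleic no member of any list was called.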

How the data were processed

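Small RNA was sequenced from 23 livers. Per the methods, reads were trimmed with FASTX-Toolkit, aligned with Bowtie in ncPRO-seq and annotated against miRBase; the labels name bcl2fastq 2.17.1.14. The labels give the build as mm10 and the methods as GRCm38.p6 and mm9, so coordinates here are those of RefSeq and GENCODE. The authors deposited raw read counts per mature miRNA, which were tested. They also deposited a normalized signal, each count divided by 1 size factor per library (ratio constant within 9.3e-15), which was not tested. A further 12 columns, of group means and of the authors' comparisons (fold changes and p-values), were not used.

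Groups came from the labels. Replicates of a group were separate livers by the labels, and no pair of libraries agreed within counting noise (lowest chi-square per degree of freedom 28.9). filterByExpr kept 386 miRNAs with 99.98% of counts. All libraries entered 1 edgeR 4.0.16 quasi-likelihood model with TMM factors and no covariate. Calls needed an adjusted p (Benjamini-Hochberg) under 0.05 with a log2 fold change beyond 0.25 in either direction. Arm ratios, log2((3p + 0.5)/(5p + 0.5)), were tested over 100 hairpins with limma 3.58.1, at an adjusted p under 0.05. Correlations used log2 CPM (prior count 2), with 100000 shuffles within groups. The study names DEGseq, in place of which edgeR was used, and DESeq2 1.42.0 was an alternative. The edgeR test and the limma test of arm ratios were also run on simulated counts. These counts had no effect of library number and no outlying libraries, so they do not bear on those features. RNAfold 2.7.2 folded the hairpin. Shares have 95% Wilson intervals.

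The members, lists and tests were chosen with earlier results of these data known. Named miRNAs were both arms, the 5 most correlated with each, those sharing a seed, the 3 hairpins with the largest called ratio change per comparison, and up to 4 per list, the most abundant. Any other is said in the text to be chosen after its values were seen. Alternatives were other tests, normalizations and filters, only the compared groups, the library number ranges, and each library left out.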

Additional observations from a re-analysis of the deposited data

How the results depend on the processing

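No called result changed direction under any alternative. The ratio difference between HFepa and HFoleic, not called at 0.02, was -0.042 with a term for the number range, -0.042 in libraries 12 to 23, and below 0 without HFoleic library 9 or 14 or HFepa library 20. For miR-335-3p in HFoleic vs. reference (log2 fold change 0.51), the call was lost with library size alone (0.42), with only the compared groups (0.51), with the number range term (0.38) and in libraries 1 to 11 (0.39). In HFepa vs. reference (0.62), it was lost with that term (0.42). miR-335-5p in HFepa vs. reference became a call with DESeq2 (0.27, adjusted p = 0.0387). The rise of the ratio in HFoleic was lost with only the compared groups (0.37), the term (0.26), libraries 1 to 11 (0.26) and without reference libraries 3, 4 and 5 (0.48), and in HFepa with the term (0.22). The 48 calls in HFoleic vs. reference became 25 with DESeq2, 10 with quantile normalization and limma, 29 with no filter, 7 with only the compared groups, 2 without libraries 3, 4 and 5 (73 at an unadjusted p under 0.05), 1 with the term (43) and 0 in libraries 1 to 11 (28). The 61 calls in HFepa vs. reference became 25 with quantile normalization, 40 with only the compared groups, 32 without libraries 3, 4 and 5 and 0 with the term (16 at an unadjusted p under 0.05). The causes were not tested.

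With each library left out in turn, miR-335-3p ranged from 0.46 to 0.59 in HFoleic vs. reference (call lost without HFoleic library 13 or 15), from 0.58 to 0.72 in HFepa vs. reference (called in all 23 fits) and from 0.07 to 0.18 between them. miR-335-5p ranged from 0.11 to 0.22, from 0.21 to 0.31 (called without library 1, 3, 6, 10, 13, 18 or 21) and from 0.06 to 0.16. The ratio ranged from 0.30 to 0.45 (call lost without 1, 4, 6, 7, 12, 13, 14, 15 or 23), from 0.32 to 0.47 (lost without 1, 4, 7, 19 or 20) and from -0.038 to 0.075. Calls ranged from 12 to 53 (12 without library 5, 24 without 13, 21 without 14, 20 without 15), from 32 to 66 (36 without 5, 38 without 16 or 18, 32 without 22) and from 0 to 1 (without 19). No paired analysis was possible because each library has its own number in the titles, so the groups share no replicate number. With 122 to 320 reads of miR-335-3p in a library, counting error limits single libraries, and 8 against 7 or 8 livers limit the group differences. Scaling by library size moved the median of all miRNAs to -0.08 and -0.12.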
